A study of Homo sapiens with 24 samples.

Results

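The mRNA of 10 amino acid transporters was followed in 2 cancer cell lines under nifuroxazide (NIF), a nitrofuran antibiotic. The genes were SLC7A5, SLC3A2, SLC7A1, SLC7A3, SLC1A4, SLC1A5, SLC38A1, SLC38A2, SLC6A9 and SLC43A1, taken by symbol from the 28307 genes of the count table, and each symbol matched 1 row. RNA was sequenced from SUM159, a breast cancer line, and SW620, a colon cancer line. Living cells had been sorted by an ALDEFLUOR assay, a fluorescent substrate of aldehyde dehydrogenase, into a bright population (ALDHbr, called ALDHpos and cancer stem cells in the labels) and a population with low activity (ALDHneg, non-cancer stem cells in the labels). Each population of each line was taken from adherent cultures kept for 30 h under NIF or under its solvent DMSO, which gave 8 groups of 3 libraries, 24 in all. The labels give the NIF stock but no final concentration. Both are established lines. The study's reporting summary states that its lines were not authenticated beyond their morphology. Its methods state that the 3 libraries of a group come from independent experiments. Because these are bulk libraries, fewer cells of a type and less RNA per cell cannot be told apart.

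Cells import most amino acids through carriers that each take a set of substrates. SLC7A5 (LAT1) exchanges glutamine for leucine and other large neutral amino acids and is held at the membrane by the heavy chain SLC3A2 (CD98), so that both are needed for leucine import, a signal to the growth kinase mTORC1. SLC1A5 (ASCT2) and the sodium-coupled SLC38A1 and SLC38A2 bring in the glutamine and small neutral amino acids that feed this exchange. When amino acids run short, the kinase GCN2 phosphorylates eIF2alpha, translation of the transcription factor ATF4 increases, and ATF4 with C/EBP partners activates transporter and amino acid synthesis genes.

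The lines differed in epithelial and mesenchymal markers. The summed level of 10 colon epithelial markers was 229 to 397 CPM (counts scaled to the library's size, by TMM) in SUM159 libraries and 8692 to 10908 in SW620, and that of 10 mesenchymal markers was 7218 to 9504 in SUM159 and 12.1 to 21.5 in SW620. KRT8 carried most of the colon epithelial sum, at 229 to 397 in SUM159 and 6369 to 8625 in SW620. KRT20 (386 to 705), LGALS4 (290.0 to 522) and VIL1 (136 to 167) were also high in SW620, and at most 2.02 in SUM159. CDX1, CDX2 and GPA33 were low in SW620, with medians of 0.300, 0.657 and 1.21. No breast marker was examined. VIM was at 3795 or more in SUM159 and at 0.354 or less in SW620. The 3 endothelial markers summed to at most 0.724 CPM in any library and PTPRC, which marks immune cells, reached 0.282. The immune sum of 1203 to 1587 in SW620 was carried by LYZ, at 1199 to 1583. ALDH1A1, which encodes a main enzyme of the ALDEFLUOR reaction, averaged 135 ± 27.7 CPM (SD, n = 3) in SUM159 ALDHbr and 0.480 ± 0.0618 in SUM159 ALDHneg cells under DMSO. In SW620 the same means were 1314 ± 51.3 and 901 ± 19.3, so that the ALDHneg population of SW620 also held much ALDH1A1 mRNA. Under NIF the ALDHbr and ALDHneg means were 177 ± 46.0 and 0.419 ± 0.184 in SUM159, and 955 ± 31.8 and 549 ± 13.4 in SW620. Total counts ran from 30253187 to 43127948 per library. One library, replicate 2 of SW620 ALDHbr under DMSO, stood apart from its group: leaving it out took the genes called between ALDHbr and ALDHneg cells under DMSO from 1577 to 5487. Results that rest on it are given with and without it.

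The 10 genes lie on 8 chromosomes of GRCh38.p14, by the RefSeq annotation. SLC7A5 spans chr16:87830023-87869507 and SLC3A2 chr11:62856109-62888860. SLC43A1 (LAT3), a carrier of branched-chain amino acids, spans chr11:57484534-57515702. The cationic amino acid carrier SLC7A1 (CAT1) spans chr13:29509414-29595688, and its relative SLC7A3 (CAT3) chrX:70925579-70931096. SLC1A4 (ASCT1), a carrier of alanine, serine, cysteine and threonine, spans chr2:64988479-65023865, and SLC1A5 chr19:46774883-46788594. SLC38A1 (SNAT1) and SLC38A2 (SNAT2) are near neighbours, at chr12:46183063-46269043 and chr12:46358188-46372773. SLC6A9 (GLYT1), a glycine carrier, spans chr1:43996483-44031462. Its 3′ end overlaps CCDC24. The count table also holds SLC7A5P2, by its symbol a copy of SLC7A5, with 34 to 158 counts per library. How far the 2 sequences match was not examined. Reads from any shared stretches are uncertain for SLC6A9 and SLC7A5.

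The promoters of these genes were searched on both strands for 2 short motifs. These were the core TGATGNAA of C/EBP-ATF response elements, through which ATF4 acts, and the E-box CACGTG. RefSeq windows (GRCh38.p14) of 250 bases before to 50 after a start of transcription were at hand for 9 of the 10 genes, 16 windows in all, since some genes have several starts. The C/EBP-ATF core was in 5 of 16 windows (31.2%), against 3.62% of 35116 windows of all genes, and the E-box in 3 of 16 (18.8%), against 7.26%. Counted by gene, the core was near 5 of 9 genes, against 4.46% of 27305 genes, and the E-box near 3 of 9, against 8.77%. The windows of SLC38A2 and SLC6A9 held neither motif. A match is a string of letters and was not tested as a binding site. The shares are a description, since the genes were chosen with earlier results of these data known. Counted by gene they are also uneven, with 16 windows for 9 genes against 35116 for 27305. The matches are shown with the bases around them, on the strand of the gene, with the motif in capitals and TTACATCA and TTGCATCA as the core read on the other strand.
SLC3A2, core at bases 38 to 45 after an internal start, chr11:62881719-62881748: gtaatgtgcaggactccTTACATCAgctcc
SLC7A1, core at bases 8 to 15 after its only listed start, chr13:29595663-29595692: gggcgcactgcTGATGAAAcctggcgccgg
SLC1A4, core across the start of a downstream promoter, chr2:64989381-64989410: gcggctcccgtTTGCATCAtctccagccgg
SLC38A1, core across an internal start, chr12:46266502-46266531: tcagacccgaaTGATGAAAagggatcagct
SLC1A5, core before an internal start, chr19:46784893-46784922: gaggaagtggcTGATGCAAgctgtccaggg
SLC1A5, E-box before another internal start, chr19:46787326-46787355: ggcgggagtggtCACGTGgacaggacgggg
SLC7A5, E-box before its only listed start, chr16:87869620-87869649: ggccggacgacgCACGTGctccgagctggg
SLC43A1, E-box before the outermost start, chr11:57515797-57515826: cagcgggcgagtCACGTGcgcgtgaaactc

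Levels were compared between genes as CPM per kb of the canonical transcript (GENCODE). In SUM159 ALDHneg cells under DMSO the order was SLC3A2 (220 ± 18.6, SD, n = 3), SLC7A5 (171 ± 6.56), SLC1A5 (140 ± 12.8), SLC38A2 (103 ± 5.15), SLC38A1 (56.9 ± 4.33), SLC7A1 (29.7 ± 1.44), SLC6A9 (4.59 ± 0.285), SLC43A1 (2.29 ± 0.231), SLC1A4 (1.79 ± 0.195) and SLC7A3 (0.0243 ± 0.0128). No neighbours in this order overlapped in their 3 libraries. In SUM159 ALDHbr cells under DMSO the order was the same, and there SLC3A2 and SLC7A5 overlapped. In SW620 ALDHneg cells under DMSO, SLC1A5 led with 343 ± 6.87, followed by SLC7A5 (144 ± 0.362) and SLC3A2 (135 ± 1.8), and SLC6A9 was the lowest of the 9 detected there at 0.858 ± 0.0774. In SW620 ALDHbr cells under DMSO the libraries of SLC7A1 and SLC38A1, and of SLC38A1 and SLC38A2, overlapped. The glutamine and leucine exchange carriers thus held the top places in both lines, per length.

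SLC7A3 was hardly detected. It had 5 to 9 counts per library in SUM159 ALDHneg cells under NIF, 1 to 3 in those under DMSO, at most 2 in SUM159 ALDHbr cells and 1 count in the 12 SW620 libraries together. A count of 0 in a library allows up to 3 counts, or 0.0722 to 0.0992 CPM in the libraries at 0. It did not pass the filter on low counts, so that the tests concern 9 of the 10 genes.

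In SW620 cells every transporter that could be tested was higher under NIF, in both populations. The question asked here is whether 30 h of NIF changes the RNA of a sorted population, and the test was edgeR's quasi-likelihood F test over all genes with Benjamini-Hochberg adjustment at 0.05. In ALDHbr cells 9 of 9 transporters were called higher, against 21.4% of the 13953 genes tested, with a median log2 fold change of 0.99 against -0.01 for all genes. In ALDHneg cells 9 of 9 were called higher, against 22.3%, with a median of 1.13 against -0.01. The transporters were chosen with earlier results of these data known, so that these shares describe them and do not test the group. With scaling by library size alone, the split of all called genes in ALDHneg cells went from 3114 higher and 3172 lower to 2578 higher and 3957 lower, and 9 of 9 transporters were still called higher. In each of the 18 contrasts all 3 NIF libraries lay above all 3 DMSO libraries.

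The glycine carrier SLC6A9 changed most. Its level in SW620 ALDHbr cells was 1.25, 1.74 and 1.77 CPM under DMSO and 19.3, 18.0 and 16.4 under NIF. In ALDHneg cells it was 2.32, 2.71 and 2.75 under DMSO and 24.4, 24.8 and 25.5 under NIF. A gene with 52 to 104 reads per library under DMSO thus had 521 to 1007 under NIF. The fold changes were 11.4 (log2 3.51 ± 0.12 SE, adjusted p = 4.72e-11) in ALDHbr and 9.62 (log2 3.27 ± 0.11, adjusted p = 3.12e-11) in ALDHneg cells.

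SLC1A4, the carrier of small neutral amino acids such as serine and alanine, came next. In ALDHbr cells it stood at 9.91, 10.5 and 9.65 CPM under DMSO and at 49.4, 46.0 and 44.2 under NIF, and in ALDHneg cells at 12.4, 13.7 and 12.5 and at 57.9, 55.3 and 56.2. The groups were far apart in both populations. The fold changes were 4.65 (log2 2.22 ± 0.07, adjusted p = 1.79e-11) and 4.38 (log2 2.13 ± 0.07, adjusted p = 1.78e-11).

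The leucine exchanger rose in both of its chains. The light chain SLC7A5 stood at 503, 564 and 553 CPM in SW620 ALDHbr cells under DMSO and at 1137, 1063 and 1008 under NIF, a fold change of 1.98 (log2 0.99 ± 0.06, adjusted p = 7.5e-09). In ALDHneg cells it went from 616, 616 and 615 to 1351, 1364 and 1336, a fold change of 2.19 (log2 1.13 ± 0.06, adjusted p = 1.53e-09). The heavy chain SLC3A2 went from 287, 248 and 293 to 659, 682 and 747 in ALDHbr cells, a fold change of 2.52 (log2 1.34 ± 0.06, adjusted p = 1.72e-09). Its ALDHneg libraries lay at 239.7, 238 and 244 under DMSO and at 737, 748 and 726 under NIF, a fold change of 3.07 (log2 1.62 ± 0.07, adjusted p = 2.16e-10). SLC43A1, which carries branched-chain amino acids without SLC3A2, went from 25.5, 21.7 and 24.6 to 38.4, 45.4 and 45 in ALDHbr cells (log2 0.84 ± 0.08, adjusted p = 1.32e-06). In ALDHneg cells it went from 14.7, 13.3 and 13.2 to 27.5, 27.9 and 26.7 (log2 1 ± 0.08, adjusted p = 2.99e-07).

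Among the glutamine carriers SLC38A2 rose most. It went from 136, 161 and 129 CPM to 328, 306 and 293 in ALDHbr cells (log2 1.12 ± 0.08, adjusted p = 5.83e-08) and from 148, 157 and 163 to 369.6, 348 and 379.6 in ALDHneg cells (log2 1.23 ± 0.08, adjusted p = 1.93e-08). Its relative SLC38A1 rose less, by a log2 of 0.6 ± 0.11 (adjusted p = 0.000635) in ALDHbr and 0.57 ± 0.11 (adjusted p = 0.000863) in ALDHneg cells. SLC1A5, the transporter with the highest level per length in SW620, rose by 0.53 ± 0.05 (adjusted p = 1.36e-06) and 0.72 ± 0.05 (adjusted p = 5.4e-08). The arginine and lysine carrier SLC7A1 rose by 0.78 ± 0.12 in each population (adjusted p = 0.000104 in ALDHbr and 9.61e-05 in ALDHneg). In ALDHbr cells under DMSO, replicate 2 was the highest library for SLC38A1 (333 CPM, against 244 and 251) and for SLC7A1 (381, against 260.2 and 303). Without it, the log2 fold changes were 0.77 for SLC38A1 and 0.96 for SLC7A1.

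In SUM159 cells 30 h under NIF gave no called transporter in the main fit, which does not use the replicate numbers. In ALDHbr cells edgeR called 0 of 9, with 1 at an unadjusted p under 0.05, against 3.16% of the 14953 genes tested, and DESeq2 called 0, against 5.85% of genes. In ALDHneg cells edgeR called 0 of 9, with 2 at an unadjusted p under 0.05, against 3.3% of genes, and DESeq2 called 1, SLC1A5 (adjusted p = 0.0136), against 5.91%. The median log2 fold change of the 9 was 0 in ALDHbr and 0.09 in ALDHneg cells, against 0 for all genes in both. With a block for the replicate number, edgeR called 3 of 9 in ALDHbr cells, against 13.3% of genes. In ALDHneg cells the block called 2 of 9, against 13.2%.

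The values were close to those under DMSO. SLC7A5 stood at 903, 941 and 881 CPM under DMSO and 781, 871 and 869 under NIF in ALDHbr cells (log2 -0.11, 95% interval -0.24 to 0.02), where the NIF libraries lay just below the DMSO libraries. In ALDHneg cells it stood at 814, 860.1 and 814 and at 831, 888 and 921 (log2 0.09, interval -0.05 to 0.22). SLC6A9, which changed most in SW620, stood in SUM159 ALDHbr cells at 12.0, 9.70 and 14.2 under DMSO and 11.1, 11.0 and 21.2 under NIF, where 1 library lay above the others (log2 0.27, interval -0.21 to 0.75). In ALDHneg cells it stood at 16.4, 14.4 and 16.1 and at 19.1, 16.4 and 24.7 (log2 0.36, interval -0.11 to 0.82). For SLC1A4 the intervals were -0.47 to 0.46 in ALDHbr and -0.16 to 0.68 in ALDHneg cells. None of these 6 intervals reached 1, that is a doubling on the log2 scale.

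SLC1A5 and SLC3A2 had the lowest p-values. SLC1A5 stood in SUM159 ALDHneg cells at 426, 470.3 and 398 CPM under DMSO and at 489.9, 499 and 530.5 under NIF, with no overlap (log2 0.23 ± 0.07, adjusted p = 0.0747). SLC3A2 stood there at 462, 464 and 402 and at 554, 502 and 527, with no overlap (log2 0.25 ± 0.09, adjusted p = 0.173). The replicate numbers of SUM159 were taken as pairs, which was inferred from the data. With the replicate block both genes were called in ALDHneg cells, at adjusted p = 0.00277 (log2 0.23) for SLC1A5 and 0.00416 (log2 0.26) for SLC3A2. Over all alternatives these adjusted p-values reached 0.264 and 0.411. In ALDHbr cells the block called 3 transporters, SLC1A5 (log2 0.19, adjusted p = 0.0145), SLC3A2 (log2 0.2, adjusted p = 0.0279) and, lower, SLC38A1 (log2 -0.15, adjusted p = 0.0297), whose adjusted p-values reached 0.358, 0.7 and 0.799 over the alternatives. The blocked fit called 13.3% of all genes in ALDHbr and 13.2% in ALDHneg cells.

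**Figure D1:**
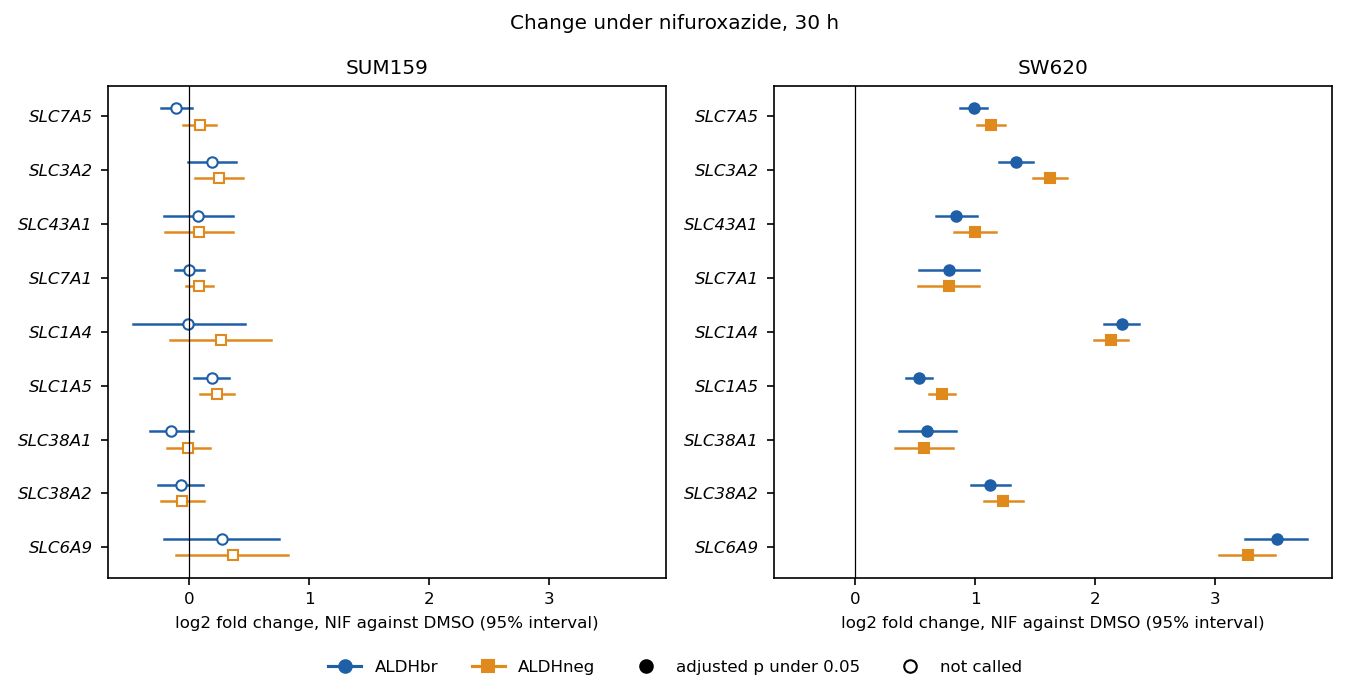
Log2 fold change of 9 transporters under NIF against DMSO in each population of each line, with 95% intervals from the quasi-likelihood fit without the replicate block; filled symbols have an adjusted p under 0.05. All 18 SW620 values lie at 0.53 or above, and the SUM159 values between -0.15 and 0.36.

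The difference between the lines was tested itself, in a fit of all 24 libraries. The NIF effect was larger in SW620 than in SUM159 for 9 of 9 transporters in ALDHbr cells, against 12.4% of 16271 genes. In ALDHneg cells it was larger for 9 of 9, against 11.9%. Here too the shares are a description, since the transporters were chosen with earlier results known. Library-size scaling took the split of all called genes in ALDHneg cells from 1939 larger and 1702 smaller in SW620 to 1615 and 2335, with 9 of 9 transporters still called. The differences in log2 fold change ran from 0.34 (95% interval 0.16 to 0.52) for SLC1A5 to 3.23 (2.61 to 3.86) for SLC6A9 in ALDHbr cells. In ALDHneg cells they ran from 0.5 (0.32 to 0.67) for SLC1A5 to 2.92 (2.33 to 3.5) for SLC6A9. Line, tissue of origin, the experiments in which each line was grown and any difference in NIF dose cannot be told apart. The paper lists final drug concentrations by cell line model, and the labels do not give them.

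Under DMSO the lines already differed in all 9 tested transporters. In ALDHbr cells 4 were called higher in SW620, against 39.6% of genes, and 5 lower, against 41.7%, and in ALDHneg cells 4 were higher, against 38.5%, and 5 lower, against 42.7%. These shares are near those of all genes. The 4 higher in SW620 were SLC43A1 (log2 2.6 in ALDHbr and 1.35 in ALDHneg cells), SLC1A4 (1.49 and 0.74), SLC1A5 (1.23 and 1.29) and SLC7A1 (0.78 and 0.88). The 5 lower were SLC6A9 (-2.75 and -2.42), SLC38A2 (-1.92 and -1.59), SLC38A1 (-0.84 and -0.29), SLC7A5 (-0.57 and -0.25) and SLC3A2 (-0.34 and -0.7). With scaling by library size alone, the median of all genes between lines was -0.202 in ALDHbr and -0.239 in ALDHneg cells, against -0.05 and -0.07 with TMM, and all 9 directions held.

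Because the same SW620 DMSO libraries enter this contrast and the NIF contrast, the values are set side by side. SLC7A5 and SLC3A2 were lower in SW620 than in SUM159 under DMSO and had higher means under NIF, at 317 ± 3.31 against 181 ± 9.26 CPM per kb for SLC7A5 and 418 ± 6.31 against 263 ± 12.1 for SLC3A2 in ALDHneg cells. SLC6A9 stood at 8.3 ± 0.185 against 5.86 ± 1.22 under NIF. SLC38A2 remained lower in SW620 in its means, at 81.5 ± 3.55 against 99.3 ± 4.96. The contrast of the lines under NIF was not tested.

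ALDHbr and ALDHneg cells were compared within each line to ask whether the sorted populations differ. In SUM159 under DMSO, edgeR called 0 transporters higher in ALDHbr cells, against 10.7% of genes, and 3 lower, against 12.3%. Under NIF it called 0 higher, against 9.95%, and 3 lower, against 12%. SLC1A4 differed most, at 3.31, 4.12 and 4.66 CPM in ALDHbr against 8.77, 7.67 and 9.67 in ALDHneg cells under DMSO (log2 -1.11 ± 0.21, adjusted p = 0.00124). Under NIF it stood at 4.11, 3.14 and 4.75 against 10.3, 7.40 and 13.6 (log2 -1.37 ± 0.21, adjusted p = 0.000197). The populations did not overlap under either treatment. SLC43A1 was lower in ALDHbr cells by a log2 of -0.45 ± 0.13 (adjusted p = 0.0227) under DMSO and -0.46 ± 0.13 (adjusted p = 0.0211) under NIF. Its call under DMSO was lost in 4 of 14 alternatives, without replicate 1 or 3 of ALDHbr or replicate 1 or 2 of ALDHneg (adjusted p from 0.0623 to 0.0831). Under NIF it was lost in 2 of 14, without replicate 3 of ALDHbr (adjusted p = 0.0979) or replicate 2 of ALDHneg (0.0681). SLC7A1 differed by -0.16 ± 0.05 under DMSO (adjusted p = 0.0477) and -0.25 ± 0.05 under NIF (adjusted p = 0.00444), and its call under DMSO was lost in 9 of 14 alternatives, among them each library left out but replicate 2 of ALDHneg (adjusted p from 0.0831 to 0.158 without 1 library). Under NIF it was lost in 1, with all 24 libraries (adjusted p = 0.0786).

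With the replicate block, 8 of 9 transporters were called in SUM159 under DMSO, against 36% of genes, and 6 of 9 under NIF, against 35.2%. Those called beside the 3 above were lower in ALDHbr cells for SLC6A9 (log2 -0.4 under DMSO, adjusted p = 0.0133, and -0.5 under NIF, adjusted p = 0.00202) and SLC3A2 (-0.17, adjusted p = 0.0296, and -0.23, adjusted p = 0.00353). SLC38A2 was higher (0.2, adjusted p = 0.00609, and 0.18, adjusted p = 0.0124), and under DMSO also SLC38A1 (0.19, adjusted p = 0.00261) and SLC7A5 (0.13, adjusted p = 0.0241).

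In SW620 under DMSO, 1 transporter was called higher in ALDHbr cells, against 5.45% of genes, and 3 lower, against 5.86%. Under NIF 1 was higher, against 3.41%, and 3 lower, against 3.26%. Library-size scaling took the split of all called genes under NIF from 476 higher and 455 lower to 584 and 367, with 1 transporter higher and 4 lower. SLC43A1 was the one higher in ALDHbr cells, at 25.5, 21.7 and 24.6 CPM against 14.7, 13.3 and 13.2 under DMSO (log2 0.8 ± 0.08, adjusted p = 3.85e-05) and by a log2 of 0.65 ± 0.08 under NIF (adjusted p = 0.000179). SLC6A9 was lower, at 1.25, 1.74 and 1.77 against 2.32, 2.71 and 2.75 under DMSO (log2 -0.72 ± 0.14, adjusted p = 0.00569), and by -0.48 ± 0.09 under NIF (adjusted p = 0.00484). The SLC6A9 calls were lost in the fit of all 24 libraries (adjusted p = 0.0989 and 0.148). None of these groups overlapped.

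SLC1A4 was lower in SW620 ALDHbr cells by a log2 of -0.36 ± 0.07 under DMSO (adjusted p = 0.00457) and -0.28 ± 0.06 under NIF (adjusted p = 0.0131). Its call under DMSO was lost in 1 of 14 alternatives, with all 24 libraries (adjusted p = 0.112). Its call under NIF was lost in 5 of 14, with all 24 libraries (adjusted p = 0.256) and without replicate 2 or 3 of ALDHbr or replicate 1 or 3 of ALDHneg (0.0526 to 0.0714). In both lines its value was below 0 under both treatments in each alternative, while that of SLC43A1 was below 0 in SUM159 and above 0 in SW620. SLC7A5 was lower by -0.19 ± 0.05 under DMSO (adjusted p = 0.0418), a call lost in 8 of 14 alternatives, among them each library left out but replicate 2 of ALDHbr (adjusted p from 0.0776 to 0.176 without 1 library), and by -0.34 ± 0.05 under NIF (adjusted p = 0.00161). Without replicate 2 of SW620 ALDHbr under DMSO, 8 of 9 transporters were called under DMSO, against 38.8% of genes. Added were SLC3A2, higher in ALDHbr cells (log2 0.26, adjusted p = 0.00112), and SLC7A1 (-0.43, adjusted p = 0.00207), SLC38A1 (-0.53, adjusted p = 0.000364) and SLC38A2 (-0.25, adjusted p = 0.00556), which were lower.

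**Figure D2:**
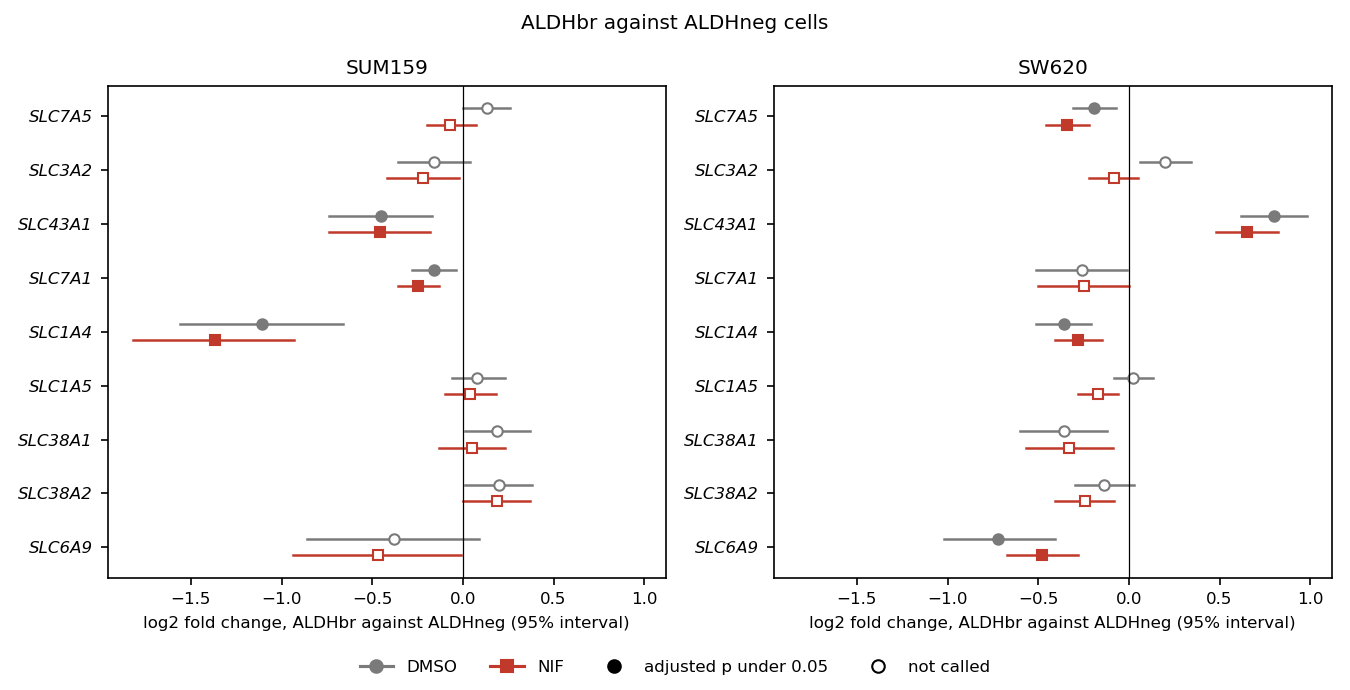
Log2 fold change of 9 transporters in ALDHbr against ALDHneg cells under DMSO and NIF, with 95% intervals from the fit without the replicate block; filled symbols have an adjusted p under 0.05. SLC1A4 lies below 0 in both lines, and SLC43A1 lies at -0.45 and -0.46 in SUM159 and at 0.8 and 0.65 in SW620.

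Whether the change under NIF differed between the sorted populations was tested as the difference of the 2 effects. The populations were taken from treated cultures, and the paper reports a smaller ALDHbr fraction under NIF. A change in which cells fall into each population and a change of RNA within cells cannot be told apart here. In SUM159 edgeR called 0 of 9 transporters (1 at an unadjusted p under 0.05), against 0% of genes, and in SW620 0 of 9 (2 at an unadjusted p under 0.05), against 0.00717%. DESeq2 called 0 of 9 in each line, against 0.0134% of genes in SUM159 and 0.208% in SW620. SLC3A2 had the lowest p-value in SW620, where its log2 fold change was smaller in ALDHbr than in ALDHneg cells by -0.28 (95% interval -0.48 to -0.09, adjusted p = 0.673). Without replicate 2 of ALDHbr under DMSO this difference was -0.35, with an adjusted p of 0.046, against 0.191% of genes called, and over the alternatives its adjusted p reached 1. For SLC6A9 the interval of the difference in SW620 was -0.12 to 0.6, and for SLC7A5 in SUM159 it was -0.39 to -0.01 (adjusted p = 1).

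Other genes of the pathway were described by lists, with no test of a list. Like the transporters, the lists were chosen with earlier results of these data known, so that their shares are a description. Their counts under NIF are read beside all genes tested, of which 21.4% were called higher and 21.9% lower in SW620 ALDHbr cells and 22.3% higher and 22.7% lower in SW620 ALDHneg cells. In SUM159 the shares were 0.936% higher and 2.23% lower in ALDHbr and 1.1% higher and 2.2% lower in ALDHneg cells. Of 43 other amino acid transporters, 21 were tested in SW620, where 7 were called higher and 6 lower in ALDHbr and 5 higher and 6 lower in ALDHneg cells, with medians of 0.01 and 0.07. The 5 higher in ALDHneg cells are near the share of all genes. SLC7A11, the cystine carrier xCT, rose most, by a log2 of 2.72 ± 0.17 in ALDHbr (adjusted p = 2.12e-08) and 2.57 ± 0.17 in ALDHneg cells (adjusted p = 2.87e-08). SLC38A6 in ALDHbr (0.78) and SLC6A20, a proline carrier, in ALDHneg cells (0.81) followed. SLC38A11 (-2.14 and -2.46) and SLC38A4 (-2.22 and -2.43) fell most. In SUM159, 23 were tested, with 0 called higher and 1 or 2 lower, the arginine carrier SLC7A2 in both populations (log2 -0.96 and -0.95) and the glutamate carrier SLC1A1 in ALDHneg cells (-0.53). SLC7A11 in SUM159 had values of 0.13 (adjusted p = 0.666) and 0.43 (adjusted p = 0.0882).

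The list of eIF2alpha kinases, ATF4 and its partners held 19 genes, all tested. In SW620, 13 were called higher in each population, 2 lower in ALDHbr and 3 lower in ALDHneg cells, with medians of 0.55 and 0.36, against 21.4% and 22.3% of all genes higher and 21.9% and 22.7% lower. CHAC1, which degrades glutathione, rose by a log2 of 3.5 ± 0.12 and 3.31 ± 0.11, and ASNS, the asparagine synthetase, by 2.28 ± 0.19 and 2.66 ± 0.19. ATF4 mRNA rose by 0.74 ± 0.08 (adjusted p = 4.16e-06) and 0.85 ± 0.08 (adjusted p = 8.81e-07). Its downstream genes DDIT3 (CHOP) and TRIB3 rose by 1.66 ± 0.12 and 2.08 ± 0.07 in ALDHbr cells, and by 1.74 ± 0.12 and 2.12 ± 0.07 in ALDHneg cells. Lower were ATF5 (-0.48 and -0.53), EIF2AK1 in ALDHbr (-0.18) and EIF2AK2 among the 3 in ALDHneg cells (-0.27).

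In SUM159 the same list had 2 genes called higher and 0 lower in each population, CHAC1 (log2 0.95 ± 0.22 and 0.82 ± 0.2) and ATF5 (0.54 ± 0.07 and 0.58 ± 0.07), with medians of 0.01 and 0.05. ATF5 thus rose in SUM159 and fell in SW620, a difference of -1.02 in ALDHbr (adjusted p = 4.47e-08) and -1.11 in ALDHneg cells (adjusted p = 1.01e-08). ATF4 was at 0.26 ± 0.09 (adjusted p = 0.125) and 0.23 ± 0.09 (adjusted p = 0.178), and TRIB3 at 0.32 ± 0.13 (adjusted p = 0.218) and 0.36 ± 0.13 (adjusted p = 0.163). DDIT3 was not called in either population.

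Of 34 genes for amino acid sensing upstream of mTORC1, 33 were in the table. In SW620, 32 were tested, with 11 called higher and 6 lower in ALDHbr and 12 higher and 4 lower in ALDHneg cells, and medians of 0.01 and 0.06, against 21.4% and 22.3% of all genes higher and 21.9% and 22.7% lower. The 6 lower in ALDHbr cells are near the share of all genes. SESN2, a leucine sensor that restrains mTORC1, rose by a log2 of 1.48 ± 0.08 and 1.72 ± 0.08, and DDIT4, another brake on mTORC1, by 1.14 ± 0.08 and 1.27 ± 0.08. Its relative SESN1 fell by 0.96 ± 0.09 and 0.79 ± 0.1, and the next lowest were LAMTOR4 in ALDHbr (-0.49) and BMT2 in ALDHneg cells (-0.32). In SUM159, edgeR called 0 of 33 in either population.

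The genes most like SLC7A5 across the 8 group means, by the distance between centred log2 CPM profiles among 12780 genes tested in both lines, were WARS1 (distance 0.253), PLEC (0.290), CLIP1 (0.308), PHYKPL (0.325) and PAQR5 (0.345). Among the transporters its partner SLC3A2 was the nearest, at rank 103 (distance 0.630), followed by SLC38A1 at rank 194 (0.721). SLC43A1 was the farthest, at rank 11261 (3.38). The groups share a scaling and a line difference, so that these distances are a description.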

How the data were processed

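Total RNA of 24 libraries (8 groups of 3) was sequenced after a stranded library preparation. The authors deposited raw counts per gene symbol for all libraries in 1 table, aligned with STAR to GRCh38 and checked with FastQC, per the submitters' processing notes; versions, the counting tool and its strand setting are not given in the sources used here. Of 28307 genes, 4579 had no count in any library. Groups came from the labels.

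Counts were tested with edgeR 4.0.16 in R 4.3.3 (filterByExpr by group, TMM scaling, quasi-likelihood F test, Benjamini-Hochberg threshold 0.05), in 1 fit per line for contrasts within a line and in 1 fit of 24 libraries for contrasts between lines. CPM are on the scale of the line's fit, log2 CPM use a prior count of 2, and levels per kb use the scale of the 24 libraries with lengths from GENCODE. DESeq2 1.42.0, other scalings, other filters, other sample sets, a replicate block and leaving out each library were alternatives. The scripts were tested on simulated counts.

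Libraries of the same group differed by more than counting error (chi-square per gene 1.95 to 43.1 over 24 pairs). The SW620 ALDHneg groups had the lowest values, 1.95 to 5.05, and the pairs of the other groups lay at 6.18 or above. With only the groups compared, 8245 genes were called under NIF in SW620 ALDHneg cells, in place of 6286. Same-numbered SUM159 libraries deviated together (12 of 12 correlations over 0.1, from 0.182 to 0.451), so that their numbers were taken as pairs, for which the hint comes from the data. Those of SW620 did not (1 of 12, from -0.278 to 0.214). P-values rest on the spread between libraries of the same group, pooled over all groups of a fit. The main fits do not use the replicate numbers. Intervals are at 95%, and a floor of 3 counts covers counting error only.

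The transporters and lists were chosen with earlier results of these data known. All 10 transporters are named, with the 2 highest and 2 lowest called genes of each list per NIF comparison, ATF4, DDIT3, TRIB3, SLC7A11 and ALDH1A1, and the 5 genes nearest SLC7A5.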

Additional observations from a re-analysis of the deposited data

Results flagged for a closer look

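The effect of NIF on each of the 9 tested transporters differed between the lines, by the test of the difference itself in the fit of all 24 libraries (edgeR, adjusted p from 1.4e-09 to 0.00545). In ALDHbr cells the log2 fold change in SW620 exceeded that in SUM159 by 1.1 for SLC7A5, 1.14 for SLC3A2, 0.77 for SLC43A1, 0.78 for SLC7A1, 2.22 for SLC1A4, 0.34 for SLC1A5, 0.75 for SLC38A1, 1.19 for SLC38A2 and 3.23 for SLC6A9. In ALDHneg cells it exceeded it by 1.05 for SLC7A5, 1.37 for SLC3A2, 0.92 for SLC43A1, 0.7 for SLC7A1, 1.88 for SLC1A4, 0.5 for SLC1A5, 0.59 for SLC38A1, 1.3 for SLC38A2 and 2.92 for SLC6A9. The 3 SW620 libraries under NIF lay above the 3 under DMSO for each of these genes in each population.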

How the results depend on the processing

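The 9 transporters called higher under NIF in SW620 were called in the same direction in 14 of 14 alternatives in each population, and the 9 differences between lines in 18 of 18. The SUM159 calls depended on the fit. The replicate block takes the numbers as pairs, as inferred from the data. With it, the count of transporters called under NIF was 3 in ALDHbr and 2 in ALDHneg cells, in place of 0. Between ALDHbr and ALDHneg cells it was 8 under DMSO and 6 under NIF, in place of 3. In SUM159 ALDHneg cells under NIF, 1 transporter was called with DESeq2, with library-size scaling, with no filter and with all 24 libraries, and 0 to 1 when 1 library was left out. Leaving out 1 library gave 1 to 2 called between SUM159 populations under DMSO, 3 to 8 between SW620 populations under DMSO and 0 to 1 for the difference of NIF effects in SW620. Between SW620 populations 2 were called with all 24 libraries, under DMSO and under NIF, and 7 with no filter under NIF, in place of 4. The block changed no call of a transporter under NIF in SW620. Causes of these changes were not tested.

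Directions turned for transporters that were not called, when 1 library was left out. Under NIF in SUM159 ALDHbr cells the log2 fold change ran from -0.15 to 0.14 for SLC1A4, -0.17 to 0.04 for SLC38A2, -0.12 to 0.43 for SLC6A9 and -0.02 to 0.18 for SLC43A1, and in ALDHneg cells from -0.08 to 0.02 for SLC38A1. Between populations it ran from -0.03 to 0.14 for SLC38A1 (SUM159, NIF) and -0.02 to 0.05 for SLC1A5 (SW620, DMSO). The difference of NIF effects in SUM159 ran from -0.16 to 0.01 for SLC3A2, -0.11 to 0.01 for SLC1A5, -0.11 to 0.09 for SLC38A2 and -0.48 to 0.09 for SLC6A9. In SW620 it ran from -0.11 to 0.17 for SLC7A1 and -0.07 to 0.2 for SLC38A1.

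Counts of all genes also moved. Under NIF in SUM159, 473 (ALDHbr) and 493 (ALDHneg) genes became 1994 and 1970 with the block, 875 and 884 with DESeq2 and 725 and 743 with all 24 libraries. With only the groups compared, 292 were called in ALDHneg cells. Leaving out 1 library gave as few as 222 and 192. Between SUM159 populations 3432 and 3281 became 5388 and 5270 with the block. Between SW620 populations under DMSO 1577 became 729 with only the groups compared and 712 to 5487 with 1 library left out. Under NIF 931 became as few as 494. The differences of NIF effect between populations stayed at 29 genes or fewer, the highest with DESeq2 in SW620. Library-size scaling shifted the split of higher and lower calls, to 2664 and 3511 in SW620 ALDHbr cells under NIF (from 2987 and 3051). Between SUM159 populations the split became 1237 and 2001 (from 1599 and 1833) under DMSO and 1182 and 2043 (from 1488 and 1793) under NIF. For the differences between lines in ALDHbr cells it became 1829 and 2087 (from 2018 and 1744). SLC7A3 did not pass the filter on low counts in the main fits. With no filter, 10 of 10 transporters were called between the lines in ALDHneg cells under DMSO, against 58.7% of genes. SLC7A3 was among the 6 lower in SW620, where it had 0 counts, against 1 to 3 per library in SUM159.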
